A study of Mus musculus with 24 samples.

Results

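The genes described here make fatty acids from acetyl-CoA, lengthen them and insert their first double bond. They are Acaca, Fasn, Scd1, Scd2, Scd3, Elovl3, Elovl5, Elovl6, Pnpla3 and Srebf1, 10 of the 18194 mouse genes that the array annotation pairs with a probe set of 1 gene symbol. All probe sets annotated to 1 of these symbols alone were taken, which gave 18 of 34958. The samples were 24 Affymetrix mouse expression arrays of liver and hypothalamus from male ob/ob mice, which carry a defective leptin gene and become obese and diabetic. All mice ate chow, were 9 weeks old and had been treated orally for 4 weeks, and no lean mice were among the samples. In the regular arm, γ-oryzanol, a rice bran component, was compared with methylcellulose. In the other arm, γ-oryzanol enclosed in nanoparticles of poly(lactic-co-glycolic acid), called Nano-Orz, was compared with water. Each of the 8 groups of tissue, arm and treatment held 3 biological replicates, named Veh 1 to Veh 3 and Orz 1 to Orz 3 within each arm. The study states that representative mice were chosen for the arrays, and whether both tissues came from the same mice is not given in the sources used here.

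Acetyl-CoA carboxylase, the product of Acaca, makes malonyl-CoA, and fatty acid synthase, the product of Fasn, joins malonyl-CoA units into palmitate. The elongases Elovl6, Elovl5 and Elovl3 add carbons, and the stearoyl-CoA desaturases Scd1, Scd2 and Scd3 place a double bond in saturated chains. Srebf1 encodes SREBP-1, the transcription factor that drives many of these genes in the fed liver, and Pnpla3 encodes a lipid droplet protein that is itself a target of SREBP-1c. In mice, Scd1 is the main desaturase of liver and Scd2 that of brain. In ob/ob mice, hepatic lipogenesis is high and the liver is fatty.

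The deposited values are log2 signals of the distribution free weighted method (DFW), which draws arrays together. Between the 6 arrays of a tissue and arm, 99.0% to 99.7% of all probe sets spanned less than 0.001. A difference therefore ranks a probe set and is no fold change. Values are given as the distance of an array from the mean of its 3 vehicle arrays, in thousandths of a log2 DFW unit for liver and in millionths for hypothalamus. Treated and vehicle arrays were compared by rank product, the method of the study. It asks whether a probe set stands near the top or the bottom of the ranked differences in all 9 treated-vehicle pairs, and scores this by a proportion of false positives, abbreviated pfp. It is an estimate that can exceed 1, and calls were made where it was under 0.05. Rank product ranks plain differences, so probe sets that vary widely between mice of 1 group reach the ends of the ranking more readily. It also made calls in simulated data with no difference put in, so a low pfp does not by itself show a treatment difference. In liver, 0.213% of the 45101 probe sets were called lower and 0.182% higher with regular γ-oryzanol, and 0.182% lower and 0.297% higher with Nano-Orz. Among the 1% of probe sets with the widest spread within groups, these shares were 13.9% lower and 14.4% higher with regular γ-oryzanol. With Nano-Orz they were 12.2% lower and 20.4% higher. limma, which weighs each difference against its spread, called 0 probe sets at an adjusted p under 0.05 in any of the 4 comparisons, with 1959 to 2753 at an unadjusted p under 0.05. The lowest limma adjusted p of the 18 probe sets in any comparison was 0.814. With 3 arrays against 3, an exact permutation test cannot go below a two-sided 0.1. In whole tissue, fewer cells of a type and less RNA per cell cannot be told apart.

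In liver, the same 3 genes were called lower in both arms: Pnpla3, Elovl6 and Scd2, each by 1 probe set. That is 3 of 18 probe sets in each arm, of which 3 with regular γ-oryzanol and 2 with Nano-Orz lay among the 1% of widest spread. Among members of that spread, 3 of 5 were thus called lower with regular γ-oryzanol, where 13.9% of such probe sets were, and 2 of 5 with Nano-Orz, where 12.2% were. There were 5 members in each arm, and the members were chosen with earlier results of these data known. These counts are therefore a description and not a test. Elovl3 was called higher with Nano-Orz only, and the difference between the arms was not called for it or for any other of the 18. After quantile normalization of the 6 arrays of a comparison, the calls of Scd2 and Pnpla3 with Nano-Orz remained, at -32.0 and -2.26 thousandths. The other 5 calls were lost at pfp values from 0.0744 (Pnpla3, regular γ-oryzanol) to 0.207 (Elovl6, regular γ-oryzanol), each with its direction kept. The 5 members within the 1% of widest spread in each arm came from Scd2, Elovl6 and Pnpla3 with regular γ-oryzanol, and from Scd2, Pnpla3, Elovl3 and Scd1 with Nano-Orz.

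**Figure D1:**
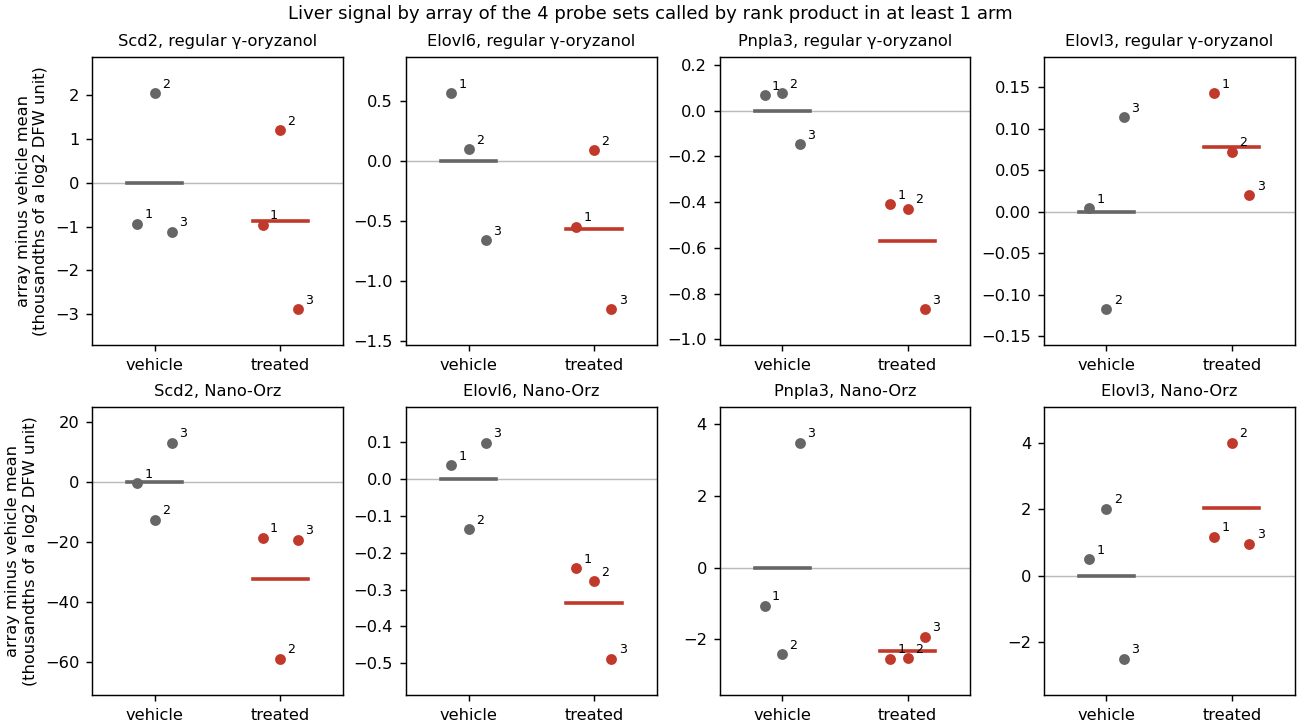
Each point is 1 array, numbered by replicate, plotted as its distance from the vehicle mean in thousandths of a log2 DFW unit, and the bars are group means (n = 3). The axes differ between panels. The treated and vehicle arrays are apart for Pnpla3 with regular γ-oryzanol and for Scd2 and Elovl6 with Nano-Orz, and overlap in the other panels.

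Of the members called in liver, Elovl6 and Pnpla3 have a promoter window in the RefSeq tables (build GRCm38.p6), 250 bases before to 50 after the start of transcription. These windows are shown because both genes were called lower in both arms. They were searched on both strands for the sterol regulatory element TCACNCCAC, the E-box CACGTG and the CCAAT box CCAAT, which mark sites of SREBP, of E-box factors and of the partner factor NF-Y. The windows are chr3:129532136-129532435 on the plus strand and chr15:84167566-84167865 on the plus strand, and capitals mark a match.
Elovl6: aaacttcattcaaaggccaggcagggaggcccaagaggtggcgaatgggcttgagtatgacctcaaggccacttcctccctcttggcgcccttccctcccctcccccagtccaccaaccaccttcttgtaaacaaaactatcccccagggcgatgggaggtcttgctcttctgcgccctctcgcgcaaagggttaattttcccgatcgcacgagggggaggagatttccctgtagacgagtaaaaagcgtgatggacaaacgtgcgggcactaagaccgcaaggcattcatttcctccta
Pnpla3: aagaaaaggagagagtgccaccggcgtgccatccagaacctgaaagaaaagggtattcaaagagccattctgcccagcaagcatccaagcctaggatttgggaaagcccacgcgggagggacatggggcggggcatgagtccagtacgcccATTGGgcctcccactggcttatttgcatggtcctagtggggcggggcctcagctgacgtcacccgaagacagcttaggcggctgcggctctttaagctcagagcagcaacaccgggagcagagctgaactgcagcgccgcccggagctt
The Pnpla3 window holds 1 CCAAT box, on the minus strand, printed above as ATTGG with its A 99 bases before the start. The Elovl6 window holds no match. Over the 9 windows of the 7 members with one, the sterol element was matched in 0 and the E-box only in Elovl5. Of all 32851 windows, 1.24% hold the sterol element, 7.15% the E-box and 37.4% the CCAAT box. A match is a run of letters and not a bound site. Scd1, Scd2 and Elovl3 have no window in the table.

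Pnpla3 was the member whose treated arrays stood clearest of the vehicle arrays with regular γ-oryzanol. Around a vehicle level of 7.11, the vehicle arrays lay at 0.0681, 0.0774 and -0.146 thousandths and the treated arrays at -0.409, -0.429 and -0.869. The groups did not overlap, as for 4.23% of all probe sets in this direction (5.02% did so in the higher direction). The difference was -0.569 ± 0.167 thousandths (SE, n = 3 and 3), at a pfp of 0. Without Veh 1 or Veh 2 the pfp was 0.0564 and 0.05, so that the probe set was no longer called, at differences of -0.535 and -0.531. With Nano-Orz, around a vehicle level of 6.64, the vehicle arrays lay at -1.06, -2.41 and 3.48 thousandths. The treated arrays lay close together at -2.54, -2.52 and -1.92. Here the groups overlapped, since Veh 2 lay among the treated arrays, and Veh 3 stood far above the other 5 arrays. The difference was -2.33 ± 1.79 thousandths, at a pfp of 0.00222. Without Veh 3 it was -0.588 at a pfp of 0.343, without Veh 1 it was -2.86 at a pfp of 0.131, and without Veh 2 it was -3.53 at a pfp of 0.00667.

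Elovl6, which lengthens palmitate to stearate, has 3 probe sets. With regular γ-oryzanol, 1417403_at lay at 0.563, 0.0944 and -0.657 thousandths in the vehicle arrays, around a level of 10.89, and at -0.547, 0.0883 and -1.23 in the treated arrays. The groups overlapped, with Veh 3 below Orz 1 and Orz 2. The difference was -0.564 ± 0.522 thousandths, at a pfp of 0.0308. The call was lost without Veh 1, Veh 2 or Orz 3, at pfp values of 0.708, 0.337 and 0.199 and differences of -0.283, -0.517 and -0.229. Without Veh 3 or Orz 2 the difference grew to -0.893 and -0.890, still called. The second probe set, 1417404_at, put the 6 arrays in the same order, from Veh 1 at 0.175 down to Orz 3 at -0.351 thousandths. Its difference of -0.159 ± 0.137 thousandths was not called, at a pfp of 0.0896.

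With Nano-Orz, both of these Elovl6 probe sets had all treated arrays below all vehicle arrays. The vehicle arrays of 1417403_at lay at 0.0370, -0.136 and 0.0989 thousandths around a level of 10.88, and the treated arrays at -0.243, -0.278 and -0.489. The difference was -0.336 ± 0.104 thousandths, at a pfp of 0.00667. Leaving out any 1 vehicle array ended the call, at a pfp of 0.144 without Veh 1, 0.0657 without Veh 2 and 0.224 without Veh 3. The differences were then -0.318, -0.404 and -0.287. The other, 1417404_at, lay at 6.67e-06, -0.00531 and 0.00531 thousandths in the vehicle arrays and at -0.0183, -0.0148 and -0.0174 in the treated arrays. Its difference of -0.0169 ± 0.00324 thousandths was large beside its standard error but was not called (pfp 0.549). The third probe set, 1442656_at, overlapped between groups in both arms, with differences of 0.0238 ± 0.0869 and 0.0956 ± 0.200 thousandths. In this arm 4.67% of all probe sets had non-overlapping groups in the lower and 4.34% in the higher direction. Among the 18 there were 3 lower, with Scd2 as the third, and 0 higher.

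Scd2 had the largest difference of the 10 genes in liver, and its size lay in 1 arm. With Nano-Orz, the vehicle arrays of 1415822_at lay at -0.395, -12.7 and 13.1 thousandths around a level of 8.04. The treated arrays lay at -18.6, -59.0 and -19.3, all below the vehicle arrays. The difference was -32.3 ± 15.3 thousandths, at a pfp of 0, and the probe set was called without any 1 array, with differences from -39.2 to -19.0. The value of -19.0 was that without Orz 2, the lowest array. Only 0.0111% of all probe sets had a wider spread within groups. Orz 2 was also the lowest array on the other probe sets, at -1.63 thousandths on 1415823_at and -0.00572 on 1415824_at. On both of these Orz 3 was the highest of the 6 arrays, at 0.550 and 0.00584. Their differences of -0.493 ± 0.673 and -0.000969 ± 0.00456 thousandths were not called.

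With regular γ-oryzanol, the Scd2 call rested on single arrays. The vehicle arrays of 1415822_at lay at -0.940, 2.05 and -1.11 thousandths around a level of 10.16, and the treated arrays at -0.960, 1.20 and -2.89. Only Veh 2 and Orz 2 were above the vehicle mean. The difference was -0.884 ± 1.57 thousandths, at a pfp of 0.0379. Without Orz 3 or Veh 2 it turned positive, at 0.121 and 0.142, with pfp values of 0.368 and 1.03. The call was also lost without Veh 1 (-1.35 at a pfp of 0.191) and without Veh 3 (-1.44 at a pfp of 0.0605), and kept without Orz 2 (-1.93 at a pfp of 0.00243). Veh 2 and Orz 2 were the top 2 arrays on 1415823_at and 1415824_at as well, whose differences were -0.158 ± 0.805 and 0.0185 ± 0.0790 thousandths. The 3 probe sets thus ranked the same arrays highest, and that array order crossed the groups.

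**Figure D2:**
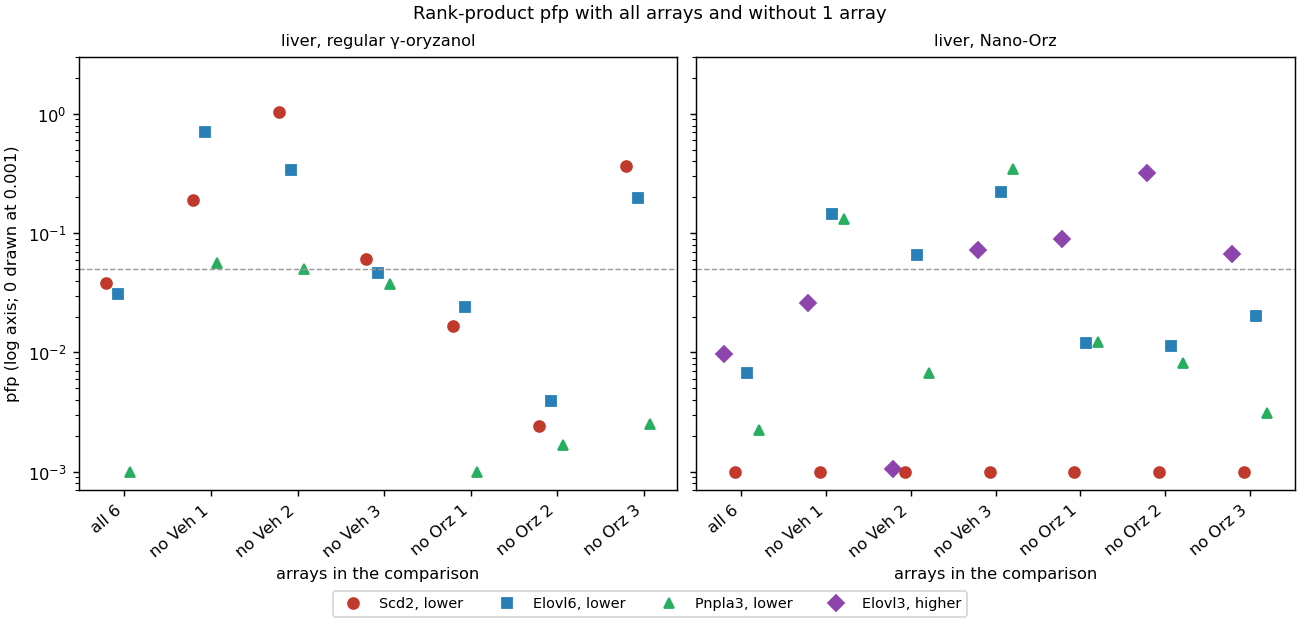
pfp of each called probe set (log axis) with all 6 arrays and without each array in turn; points under the dashed line at 0.05 are called. Scd2 with Nano-Orz stays at 0 in all 7 settings, drawn at 0.001, while each other call is lost in 2 to 4 of the 6 settings without an array.

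Elovl3 was the 1 member called higher. It lengthens saturated and monounsaturated chains and is known in mouse liver for a strong daily rhythm and for higher expression in males. With Nano-Orz, the vehicle arrays lay at 0.500, 2.01 and -2.51 thousandths around a level of 8.93, and the treated arrays at 1.18, 4.01 and 0.956. The groups overlapped, with Veh 2 above Orz 1 and Orz 3. The difference was 2.05 ± 1.65 thousandths, at a pfp of 0.00964. It was lost without Orz 1, Orz 2, Orz 3 or Veh 3, at pfp values of 0.0889, 0.321, 0.0663 and 0.0719. Without Orz 2 the difference was 1.07, without Veh 3 it was 0.790, and without Veh 2 it was 3.05. With regular γ-oryzanol, the vehicle arrays lay at 0.00404, -0.118 and 0.114 thousandths and the treated arrays at 0.143, 0.0725 and 0.0197. That difference of 0.0784 ± 0.0757 thousandths was not called (pfp 0.208), except without Veh 3, at 0.135 and a pfp of 0.0264. Of the circadian clock genes, Dbp, a transcription factor with a daily rhythm in liver, was called higher with Nano-Orz, at 0.496 ± 0.251 thousandths. Dbp was the only 1 of 14 measured clock genes to be called. Of the 14, 5 differences were positive and 9 negative, with a median of -0.845 millionths. The part of the clock in the Elovl3 values was not tested.

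The members at the head of the pathway were not called in liver. Srebf1 came closest, with Nano-Orz. Its vehicle arrays lay at -0.0401, -0.00703 and 0.0471 thousandths around a level of 11.23, and its treated arrays at -0.338, -0.0371 and -0.0746. Orz 2 lay above Veh 1, so the groups overlapped, and the difference was -0.150 ± 0.0981 thousandths (pfp 0.0980). With regular γ-oryzanol the difference was -0.00438 ± 0.00651 thousandths. Fasn lay at -0.0709, -0.0680 and 0.139 thousandths in the vehicle arrays of the Nano-Orz arm and at -0.111, -0.191 and -0.00525 in the treated arrays. Its differences were -0.103 ± 0.0879 thousandths with Nano-Orz (pfp 0.201) and -0.0124 ± 0.0245 with regular γ-oryzanol (pfp 0.940). Acaca, measured by 1434185_at, had differences of -0.0514 ± 0.0400 and -0.0500 ± 0.0588 thousandths, at pfp values of 0.428 and 0.405. Its other probe set, 1427595_at, gave -0.00296 ± 0.0129 and -0.00294 ± 0.00591. The treated mean of Fasn, of Acaca and of Srebf1 was below the vehicle mean in both arms, with groups that overlapped each time. By real-time PCR in more mice a group, the study reports lower liver mRNA of ACC, FAS and SREBP-1c with Nano-Orz. It reports no effect of regular γ-oryzanol on them. That measure and its set of mice differ from those of the arrays.

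The Scd1 signal of 1415964_at was near the top of the array's range in liver, at 14.63 and 14.55. It was identical in all 6 arrays of the regular arm to the deposited decimals, so this probe set cannot show a difference there. The second probe set, 1415965_at, had a level of 12.62 with regular γ-oryzanol and a difference of 0.0321 ± 0.0551 thousandths. With Nano-Orz its treated arrays lay at -0.269, -0.167 and 0.600 thousandths, on both sides of the vehicle arrays at 0.179, 0.00401 and -0.183. That difference was 0.0550 ± 0.294 thousandths, not called. Both Elovl5 probe sets, at levels of 13.64 to 13.89, differed by 0.00013 thousandths or less in either direction. Elovl5 elongates polyunsaturated fatty acids, and the letter x in 1437211_x_at marks probes that can match other transcripts too. Scd3, a desaturase known from mouse skin, had levels of 5.84 to 6.67 and no call.

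**Figure D3:**
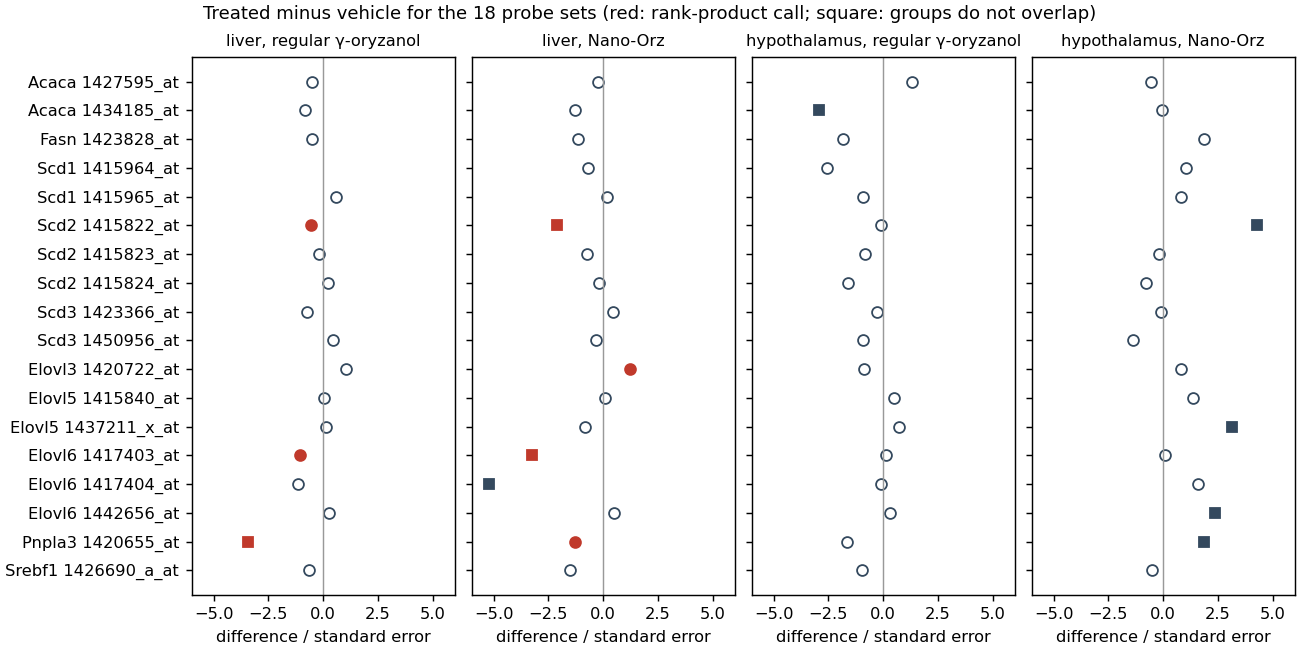
Treated minus vehicle of the 18 probe sets, divided by its standard error, in the 4 comparisons. Red marks a rank-product call, squares mark groups that do not overlap, and 1415964_at of Scd1 has no point for regular γ-oryzanol in liver because its 6 values were identical. The non-overlapping sets are 1 and 3 in liver, all lower, and 1 lower and 4 higher in hypothalamus.

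Over all 18 probe sets in liver, 10 differences were negative and 7 positive with regular γ-oryzanol, and 13 negative and 5 positive with Nano-Orz. Their medians were -3.66 and -4.50 millionths, against 0.059 and -0.0477 over all probe sets, of which 48.0% and 52.0% were negative. The median spread within groups of the 18 was 69.7 and 78.3 millionths, against 3.23 and 2.73 over all probe sets. The spread differed among the members, and the probe sets of Elovl5 and 1415964_at of Scd1 varied less than most probe sets in both arms. With regular γ-oryzanol, Orz 3 was the lowest array on 8 of the 18 probe sets, those of Scd2, Elovl6, Pnpla3, Fasn, Acaca and Scd3, against 17.7% of all probe sets. With Nano-Orz, Veh 3 was the highest array on 8, those of Scd2, Elovl6, Pnpla3, Fasn, Acaca and Srebf1, against 22.2% of all probe sets. In that arm Orz 2 was the lowest array on 8, including all probe sets of Scd2 and Elovl5, against 12.4%. With Nano-Orz, 15 of the 18 differences were negative without Veh 3 and 10 without Orz 2. With regular γ-oryzanol, 8 of 18 were negative without Orz 3.

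**Figure D4:**
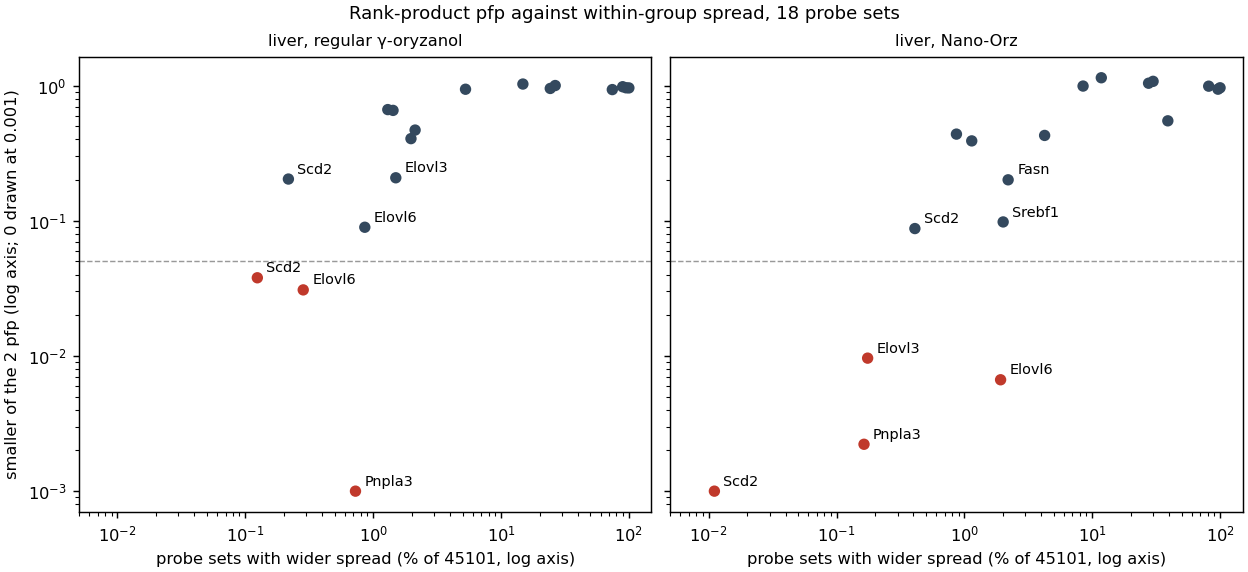
Smaller of the higher and lower pfp of each probe set in liver against the share of the 45101 probe sets with a wider spread within groups (both log axes; a pfp of 0 is drawn at 0.001). Called probe sets are red, lie under the dashed line at 0.05, and have at most 1.92% of probe sets with a wider spread.

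The genes around these members were described from a list of 48, of which 44 were measured, in 7 groups. They supply acetyl-CoA and NADPH, regulate malonyl-CoA, complete the elongation cycle, place other double bonds, form the mitochondrial pathway, regulate transcription or esterify the product. With regular γ-oryzanol, 0 of the 44 were called in liver by rank product. A negative difference was seen for 36, beside 48.0% of all probe sets. The 36 included all 6 suppliers of acetyl-CoA and NADPH and all 9 elongation genes. Such a count takes no account of the size of a difference beside its standard error. Without Orz 2 the count of negative differences was 28, the lowest of the 6 settings with 1 array left out. The median difference of the 44 was -0.898 millionths. With Nano-Orz, 25 of 44 were negative, beside 52.0% of all probe sets, with a median of -0.460 millionths, and 1 was called lower. This was Mlxipl, which encodes the carbohydrate response factor ChREBP, an activator of Fasn, Acaca, Elovl6 and Pnpla3 in liver. Around a level of 9.66, its vehicle arrays lay at -0.180, -0.00695 and 0.187 thousandths and its treated arrays at -0.203, -0.125 and -0.453. The groups overlapped, and the difference was -0.260 ± 0.145 thousandths at a pfp of 0.0461. The call was lost without Orz 3, Veh 1, Veh 2 or Veh 3, at pfp values of 0.132, 0.134, 0.330 and 0.591, and the difference was -0.164 without Orz 3 and -0.167 without Veh 3. With regular γ-oryzanol, the Mlxipl difference was 1.67e-05 ± 0.0223 thousandths.

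Whether the treatment effect differed between the 2 arms was tested with limma over the 12 arrays of a tissue. The test took the difference of the 2 effects, since the arms do not share vehicle arrays. The study gave Nano-Orz at a far lower dose than regular γ-oryzanol, so dose changes with the formulation here. In liver, 0 of the 18 probe sets differed at an adjusted p under 0.05, and 0 at an unadjusted p under 0.05, beside 0 and 2479 of all 45101 probe sets. The lowest limma adjusted p was 0.919, that of Scd2 1415822_at, whose effect was lower with Nano-Orz by -31.4 ± 15.4 thousandths. For Pnpla3 the effect of Nano-Orz minus that of regular γ-oryzanol was -1.76 ± 1.80 thousandths, and for Elovl6 1417403_at it was 0.228 ± 0.532. In hypothalamus, 0 of 18 differed after adjustment (lowest limma adjusted p 0.633) and 2 at an unadjusted p under 0.05, Scd1 1415964_at and Pnpla3, by 10.3 ± 3.71 and 8.97 ± 3.67 millionths. Of all 45101 probe sets in hypothalamus, 2 differed after adjustment and 3099 before it.

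In hypothalamus, 0 of the 18 probe sets were called in either arm, beside 0.561% of all probe sets with regular γ-oryzanol and 0.987% with Nano-Orz. limma called 0 as well, with 1 and 0 at an unadjusted p under 0.05. None of the 18 lay among the 1% of widest spread, and their median spread within groups was 4.34 and 1.50 millionths. The lowest pfp was 0.109, of Scd2 1415824_at with regular γ-oryzanol. Its vehicle arrays lay at -22.0, -119 and 141 millionths around a level of 9.27 and its treated arrays at -326, -123 and -76.7, a difference of -175 ± 108. The probe set of Scd2 called in liver, 1415822_at, stood at a level of 13.63 and differed by -0.00333 ± 0.0353 millionths. With Nano-Orz it lay at -0.0167, -0.0167 and 0.0333 millionths in the vehicle arrays and at 0.0833, 0.0633 and 0.0833 in the treated arrays, a difference of 0.0767 ± 0.0180. The groups did not overlap, and 99.6% of all probe sets had a wider spread.

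The groups of 1 member probe set did not overlap with regular γ-oryzanol in hypothalamus. This was 1434185_at of Acaca, at -0.186, 0.0360 and 0.150 millionths with vehicle and -0.240, -0.341 and -0.324 with treatment, around a level of 9.58. Of all probe sets, 5.04% had non-overlapping groups in that direction and 5.87% in the other. With Nano-Orz, 4 did not overlap, all higher, beside 6.18% of all probe sets in that direction and 4.95% in the other. Besides Scd2, they were Elovl5 1437211_x_at, Elovl6 1442656_at and Pnpla3. The Pnpla3 vehicle arrays lay at -4.04, 2.96 and 1.08 millionths around a level of 7.51 and the treated arrays at 4.04, 10.4 and 2.98, so that Orz 3 exceeded Veh 2 by a small margin. Its difference was 5.79 ± 3.11 millionths (pfp 0.842). Elovl6 1442656_at differed by 8.88 ± 3.74 millionths (pfp 0.563). Fasn differed by -23.9 ± 12.9 millionths with regular γ-oryzanol (pfp 0.407) and by 0.893 ± 0.484 with Nano-Orz (pfp 1.17). Of the 44 pathway genes, 0 were called in either arm, with 25 and 17 negative, beside 50.8% and 48.3% of all probe sets.

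The levels of the members set the tissues apart. Each tissue and arm had its own range of values, and whether DFW was run on each by itself is not stated, so levels are set side by side with no test, as means ± SD over the 12 arrays of a tissue. Scd1 1415964_at was at 14.59 ± 0.0419 in liver and 11.62 ± 0.0841 in hypothalamus, and Elovl5 1437211_x_at at 13.84 ± 0.0511 and 10.71 ± 0.170. Fasn was at 12.66 ± 0.267 and 10.74 ± 0.306, and Elovl6 1417404_at at 12.48 ± 0.0296 and 9.74 ± 0.0755. Srebf1 was at 11.33 ± 0.102 and 10.04 ± 0.143, Acaca 1434185_at at 10.79 ± 0.0817 and 9.52 ± 0.0638, and Elovl3 at 8.87 ± 0.0649 and 6.40 ± 0.0186. These 7 genes were higher in liver in both arms by the probe sets named here. Over all probe sets, the median of liver minus hypothalamus was -0.45, and 15.7% were higher in liver. Scd2 was the reverse, at 9.09 ± 1.12 in liver and 13.59 ± 0.0371 in hypothalamus by 1415822_at, and liver minus hypothalamus was -4.32 and -2.66 for its other probe sets. For Scd3 it was -0.83 and -0.86, and for Pnpla3 -0.56. By percentile within the array, Pnpla3 lay between 56.2 and 67.7 in liver and between 52.4 and 59.1 in hypothalamus, ranges that overlap. The mean percentile was higher in liver, so the order of the tissues turns with the scale. The same holds for the probe sets 1427595_at of Acaca and 1442656_at of Elovl6, at -0.37 and -0.66 on the log2 scale, opposite to the other probe sets of these genes, and at 10.9 and 0.248 in percentiles.

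**Figure D5:**
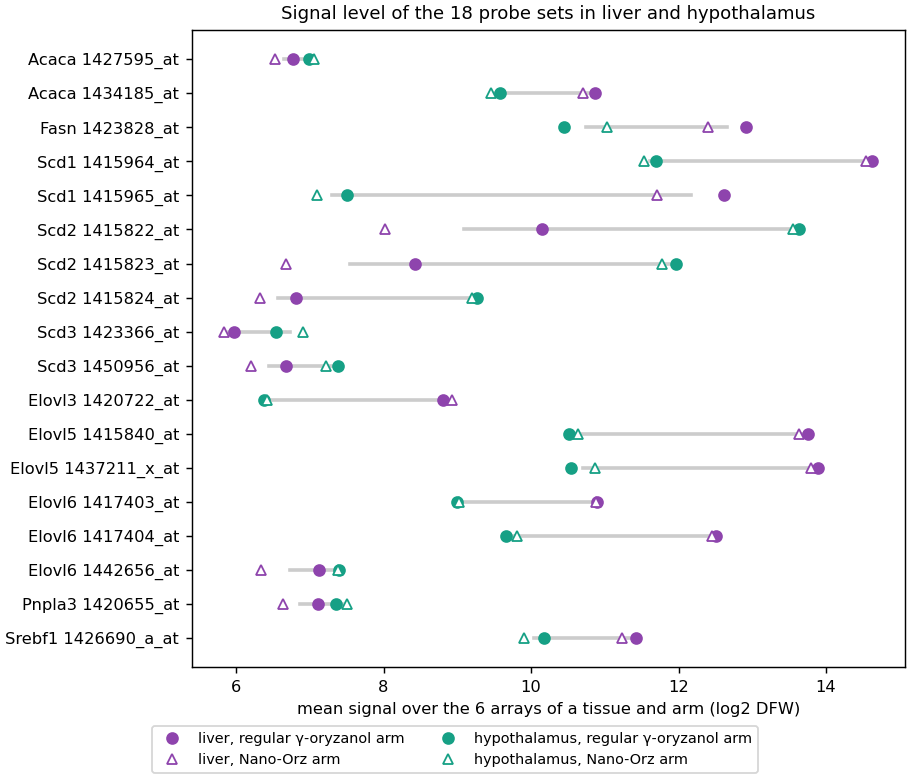
Mean signal of each probe set over the 6 arrays of a tissue and arm, in log2 DFW units, with liver in purple, hypothalamus in green and a grey line joining the tissue means. Scd2 lies to the right in hypothalamus, while Scd1, Elovl5, Elovl6 1417404_at, Fasn, Srebf1 and Elovl3 lie to the right in liver.

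The SD of Scd2 in liver came from the arms. The liver level of 1415822_at averaged 10.16 over the 6 arrays of the regular arm and 8.02 over those of the Nano-Orz arm, a difference of -2.14, and that of 1415823_at differed by -1.76. Scd1 1415965_at differed by -0.91, Elovl6 1442656_at by -0.78, Fasn by -0.51 and Pnpla3 by -0.48. In all, 17 of the 18 probe sets had lower liver levels in the Nano-Orz arm, as did 68.4% of all probe sets, whose median shift was -0.09. Elovl3 was the exception, at 0.12. These shifts include the vehicle arrays and far exceed the treated minus vehicle differences. Scd2 1415822_at had a liver vehicle mean of 10.16 with methylcellulose and 8.04 with water, which held no particles. Between the vehicle arrays, the vehicle, the group of mice and any separate DFW scaling change with the arm and cannot be told apart. Between the treated arrays, the particles and the dose change as well, and their part was not tested.

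Marker lists described the tissue content. In liver, 8 of 8 measured hepatocyte markers were higher than in hypothalamus, and in hypothalamus all 5 neuron and all 6 hypothalamic neuron markers were higher. In liver, no hepatocyte marker was called in either arm, and their summed level (as 2 to the power of the signal) ranged from 123467 to 123469 over the 6 arrays of the Nano-Orz arm. DFW draws the signals of most probe sets together, so a narrow range of a summed level does not show an equal content of cells. Of 6 stellate cell and fibroblast markers, 3 were called higher with Nano-Orz (Col1a2, Col3a1 and Lum). Their summed level was 3547.7 to 3553.8 in the vehicle arrays and 3549.9 to 3552.0 in the treated arrays, so the ranges overlapped. Of 5 measured adipocyte markers, the lipid droplet gene Cidec was called higher, at 0.402 ± 0.164 thousandths. In hypothalamus with Nano-Orz, 4 of 4 choroid plexus markers were called lower, with a summed level of 534.9 to 538.3 in the vehicle arrays and 534.8 to 535.3 in the treated arrays. Also called lower there were 4 of 6 fibroblast markers, Ttr of the hepatocyte list, Avp and Cga, while Trh was called higher. The summed level of the hepatocyte list, which includes Ttr, was 1270.9 to 84867.6 in these vehicle arrays. In the treated arrays it was 766.6 to 9891.8, so the ranges overlapped. That sum is not read as a content of hepatocytes in hypothalamus, where 8 of 8 of these markers were lower than in liver. With regular γ-oryzanol, Alb and Cyp2e1 of the hepatocyte list were called lower in hypothalamus, and Oxt, Trh and Cga higher. The part of these markers in the member values was not tested.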

How the data were processed

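Total RNA of liver and hypothalamus had been hybridised to Affymetrix Mouse430_2 arrays, 1 array a sample. The authors scanned the arrays and deposited log2 signals per probe set, summarised by the distribution free weighted method (DFW); software versions are not given in the sources used here. Each tissue and arm had its own range of values, as if scaled separately, which is not stated, so treated and vehicle arrays were compared within the 6 arrays of 1 tissue and arm, and the arms only by the difference of these effects. The number of arrays limits the precision. The 24 columns of 4 further tables were not used, since their animal codes match no label.

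Groups and replicate numbers came from the labels. Rank product (9 treated-vehicle pairs, 100 permutations within arrays, numpy 2.4.6) gave the calls at a pfp under 0.05, and limma 3.58.1 in R 4.3.3 gave adjusted p-values over all 45101 probe sets. The reported SE is that of the difference of group means. In simulated data, rank product recovered changes planted among widely spread probe sets, and limma changes planted where all probe sets had 1 common spread. Real probe sets differ in spread, so this limma simulation does not show what limma can find in these data. The planted changes were large beside the simulated spread, so the simulations do not show how well either test finds small ones. Rank product also made calls where no difference had been simulated, so a pfp under 0.05 does not by itself show a treatment difference. All 10 members were named, with every probe set of 1 symbol (932 probe sets had several symbols and 9211 none), and so was each pathway gene called; other pathway genes were represented by 1 probe set each. Members, pathway genes and marker lists were chosen with earlier results of these data known. Alternatives were other scalings, filters, thresholds and tests, same-numbered pairs and leaving out each array.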

Additional observations from a re-analysis of the deposited data

Results flagged for a closer look

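With Nano-Orz, Scd2 (1415822_at) lay lower in all 3 treated liver arrays than in all 3 vehicle arrays, by -32.3 thousandths of a log2 DFW unit, and higher in all 3 treated hypothalamus arrays than in the vehicle arrays, by 7.67e-05 thousandths. It is given here because the groups did not overlap in either tissue, in opposite directions. Of all probe sets, 4.67% did so in the lower direction in liver and 6.18% in the higher direction in hypothalamus. The probe set was not called in hypothalamus (pfp 1.02). The difference between the tissues was not tested, since each tissue had its own range of values, and in hypothalamus 99.6% of all probe sets had a wider spread.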

How the results depend on the processing

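The counts of called member probe sets depended on scaling and test. The differences of the called members kept their direction after quantile normalization and median centring, the settings that recompute them on all 6 arrays. With regular γ-oryzanol in liver, 3 were called lower. This became 0 after quantile normalization, 1 among probe sets above the median of the mean signal, 1 with differences standardized by their spread and 1 at a pfp under 0.01. It was 0 by limma after adjustment, with or without the replicate number as a block, and by the Student test of the study's methods 1 without and 0 with adjustment. Leaving out 1 array gave 0 to 4 lower and 0 to 1 higher. With Nano-Orz in liver, the 1 higher call became 0 after quantile normalization, with standardized differences, by limma with or without the replicate block and by the Student test with or without adjustment, and 0 to 1 without 1 array. The 3 lower calls became 0 by limma with or without the replicate block and by the adjusted Student test, and 1 to 4 without 1 array. In hypothalamus, the unadjusted Student test gave 1 lower in the regular arm. With Nano-Orz it gave 2 higher, and quantile normalization gave 1 higher. The counts under these alternatives were not set against all probe sets by the same test, so they are no result about the members. By limma, 2563 of all 45101 probe sets in the regular arm of hypothalamus had an unadjusted p under 0.05, and 2753 with Nano-Orz. The difference of Scd2 (1415822_at) with regular γ-oryzanol was -0.884 thousandths, and turned to 0.121 without Orz 3 and to 0.142 without Veh 2, in a range from -1.93 to 0.142 without 1 array. The cause of these changes was not tested. Of the members higher in liver than in hypothalamus, 5 of 7 genes were so by all their probe sets.

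Same-numbered arrays did not pair throughout. The correlation of their deviations ranged from 0.0160 to 0.218 and from -0.195 to 0.0784 in liver, and from 0.0927 to 0.212 and from 0.0687 to 0.374 in hypothalamus. Rank product over the same-numbered pairs alone (replicate block) called 4 lower in liver in the regular arm, 3 lower and 1 higher there with Nano-Orz, and 0 in hypothalamus. In all, 126 recomputed counts stayed within 1.5 times their value and 30 did not. Most of the 126 were counts of 0 that stayed 0, so this total does not measure how stable the calls were. DFW leaves most signals nearly equal between arrays, 3 arrays a group limit the precision, and the 6 liver values of Scd1 (1415964_at) were identical with regular γ-oryzanol and its vehicle.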
